A study of Homo sapiens with 2 samples.

Results

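MS4A1, the gene that encodes CD20, and 8 transcription factors described as drivers or repressors of its promoter (SPI1, SPIB, POU2F1, POU2F2, TFE3, USF1, FOXO1 and IKZF1) were examined in Ramos cells and in rituximab-resistant Ramos640 cells. The 9 genes were chosen by name, and all 9 were found among the 37122 genes of the RNA-seq count table. Ramos is a human Burkitt's lymphoma (BL) cell line of B-cell origin, grown in RPMI medium with fetal bovine serum and antibiotics, and it served as the original line. Ramos640 was derived from Ramos by escalating rituximab in the presence of 20% normal human serum, and was treated with 640 units of mass per mL of rituximab (mg in the sample labels, μg in the methods) and serum every 21 days to maintain resistance. It is a population selected from 1 cell line. Per line, the RNA of 3 passages was combined into 1 library, so no difference has a replicate check, and no p-value is given. Culture history and resistance therefore cannot be told apart, and neither can fewer expressing cells and less RNA per cell.

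CD20 is a protein of the B-cell surface that crosses the membrane several times, and it is the target to which rituximab binds before complement attacks the cell. Its promoter is known to be bound by PU.1 (encoded by SPI1) and Spi-B, which are ETS factors of the blood lineages, by the octamer-binding proteins Oct-1 (POU2F1) and Oct-2 (POU2F2), and by the E-box proteins TFE3 and USF1. FOXO1, a forkhead factor that AKT keeps out of the nucleus, and Ikaros (IKZF1), a zinc finger factor of lymphocytes, have also been described to act on it.

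The libraries held 38030090 reads (Ramos) and 30871826 reads (Ramos640), and 18778 genes had at least 10 reads in both together. Counts were scaled by median-of-ratios size factors (1.14 and 0.876), and 1 was added to each normalised read count before the log2 fold change (Ramos640 relative to Ramos) was computed. The 95% intervals are exact Clopper-Pearson intervals of a gene's share of reads and cover counting error only. Across the genes tested the median log2 fold change was -0.015, 14.6% of genes were past the 1.5-fold criterion of the study upwards and 17.3% downwards. The interval lay above 0 for 29.6% and below 0 for 31.6%, so an interval clear of 0 was common at this depth. Of the 8226 genes with at least 1000 reads in both libraries together, as all 9 genes had, 6.87% were past the criterion upwards and 7.93% downwards, and 40.9% and 39.4% had intervals above and below 0.

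MS4A1 was far lower in Ramos640 than in Ramos. The Ramos library held 9654 reads of it and the Ramos640 library 1904, or 8460 and 2173 normalised reads. The log2 fold change was -1.96 (interval from -2.03 to -1.89), which is 3.89-fold lower (3.71 to 4.09). The Ramos library thus lay clearly above the Ramos640 library, with no overlap of counting intervals. By number of reads MS4A1 was in place 694 of all genes in Ramos and in place 3184 in Ramos640. Of the 1149 other genes with at least 11558 reads in both libraries together, 0 had a lower log2 fold change, the lowest being -1.90, and 50 (4.35%) were past 1.5-fold downwards. Of the 8226 genes with at least 1000 reads, 19 had a lower log2 fold change than MS4A1, or 0.231%. MS4A1 transcripts are low in GC content (37.8%), and genes of such content had a running median log2 fold change of -0.31. With this trend removed, MS4A1 was at -1.65.

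**Figure D1:**
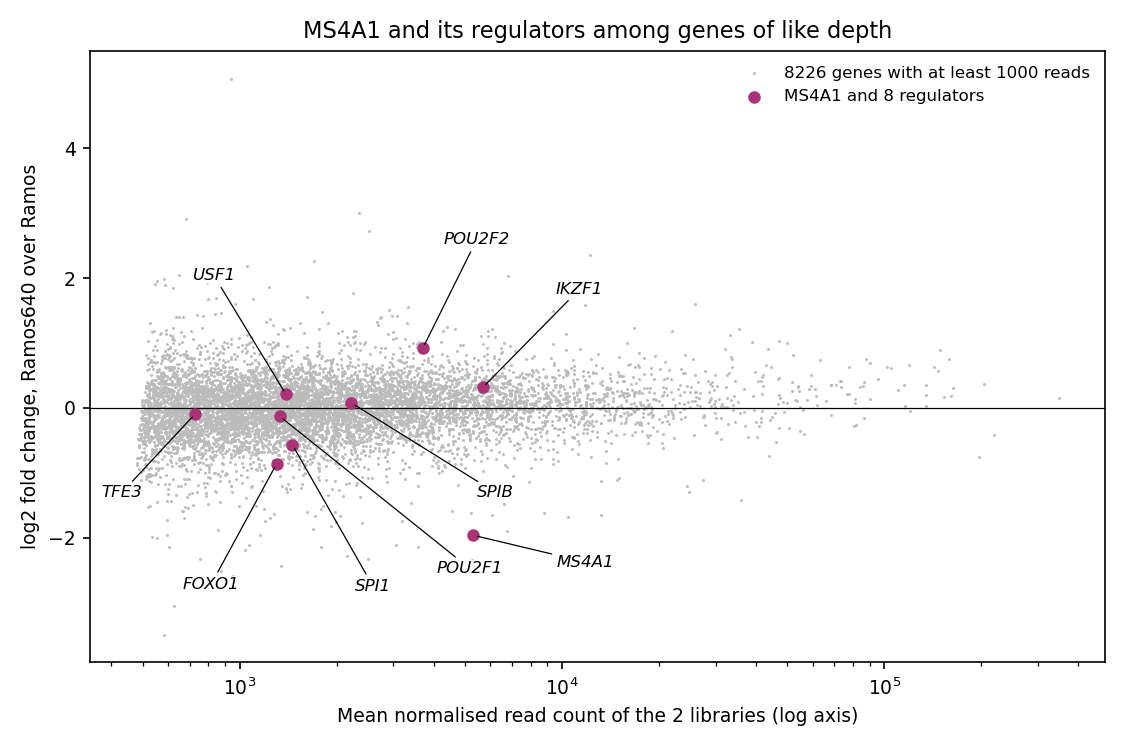
Log2 fold change of Ramos640 over Ramos against the mean normalised read count of the 2 libraries (log axis) for the 8226 genes with at least 1000 reads in both libraries together, with MS4A1 and the 8 regulators as large points, 1 library per cell line. MS4A1 lies at -1.96, at the lower edge of the cloud, where 19 of the 8226 genes had a lower log2 fold change. POU2F2 (0.92) lies near the upper edge and FOXO1 (-0.86) towards the lower edge.

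Within a library, the number of MS4A1 reads can be set against those of other B-cell surface genes with no scaling between libraries. For every read of CD22, an inhibitory receptor, there were 0.249 MS4A1 reads in Ramos and 0.0837 in Ramos640, a ratio 2.97-fold lower (2.82 to 3.13). Relative to CD79B, the signalling chain of the B-cell receptor, it was 6.05-fold lower, with 0.139 and 0.0230 MS4A1 reads per CD79B read. The ratio to CD37 was 6.11-fold lower and that to CD79A 5.78-fold lower. MS4A1 was thus lower in Ramos640 relative to each of these 4 surface genes.

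The other MS4A genes, which lie with MS4A1 on chromosome 11 and encode related membrane proteins, had almost no reads. Of the 15 listed, 14 had no reads in either library, and MS4A7 had 5 in Ramos and 0 in Ramos640. Where no read was seen, up to 3 reads are still compatible with the depth, or 0.0789 CPM in Ramos and 0.0972 CPM in Ramos640. MS4A1 lies at positions 60223319 to 60238225 of chromosome 11 (GRCh37, plus strand). The 10 nearest protein-coding genes on each side with at least 100 reads spanned 2.78 Mb. They had a median log2 fold change of 0.010, ranging from -1.10 to 0.81. Of these 20, 10 were higher and 10 lower, and 0 was as low as MS4A1. The sides differed, so the median does not describe either. Before MS4A1 on the chromosome, all were lower except PATL1 and MRPL16 (both 0.14). After it, all were higher except SLC15A3 (-0.49) and DAK (-0.063). The nearest on each side were MRPL16, at 0.14, and CCDC86, at 0.81.

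**Figure D2:**
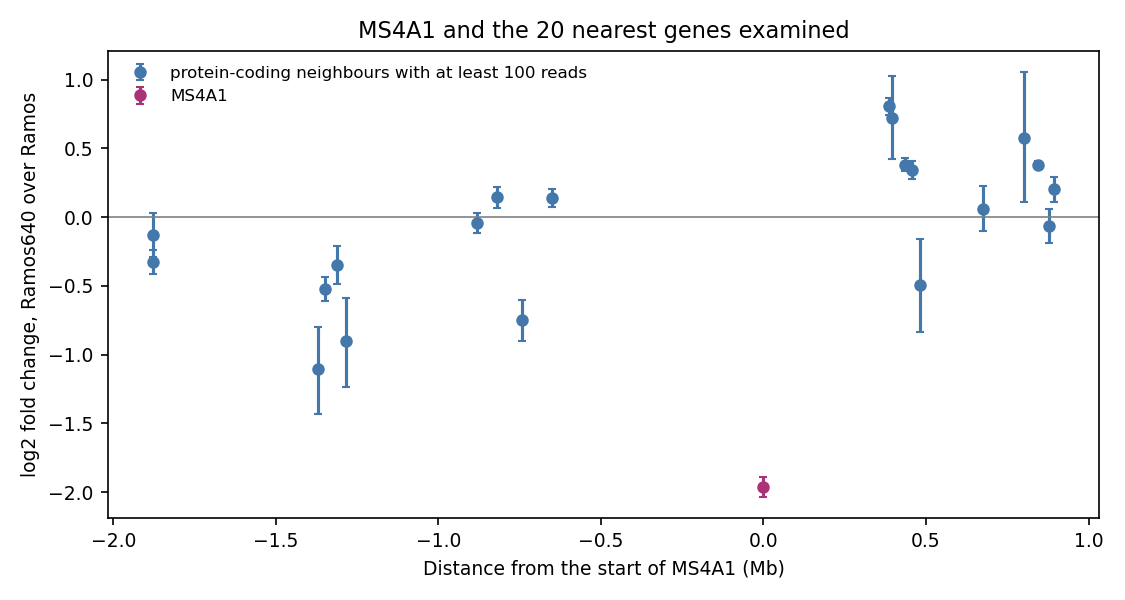
Log2 fold change of Ramos640 over Ramos against the distance from the start of MS4A1 in Mb, for MS4A1 and the 10 nearest protein-coding genes on each side with at least 100 reads (points: 1 library per cell line; bars: 95% counting intervals). The neighbours range from -1.10 to 0.81 and MS4A1 lies below all of them, at -1.96. Most neighbours left of MS4A1 lie below 0 and most right of it above 0.

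Among the 8 regulators, 4 were higher and 4 lower in Ramos640, where 48.8% of all genes tested were above 0 and 51.2% below. They had a median log2 fold change of -0.0081 beside -0.015 over all genes tested. Past 1.5-fold there was 1 higher (POU2F2) and 1 lower (FOXO1). The intervals of 3 lay above 0 (POU2F2, IKZF1 and USF1) and those of 3 below 0 (FOXO1, SPI1 and POU2F1). Over the genes with at least 1000 reads, the shares were 6.87% and 7.93% for the fold and 40.9% and 39.4% for the intervals, so these counts were near the background.

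**Figure D3:**
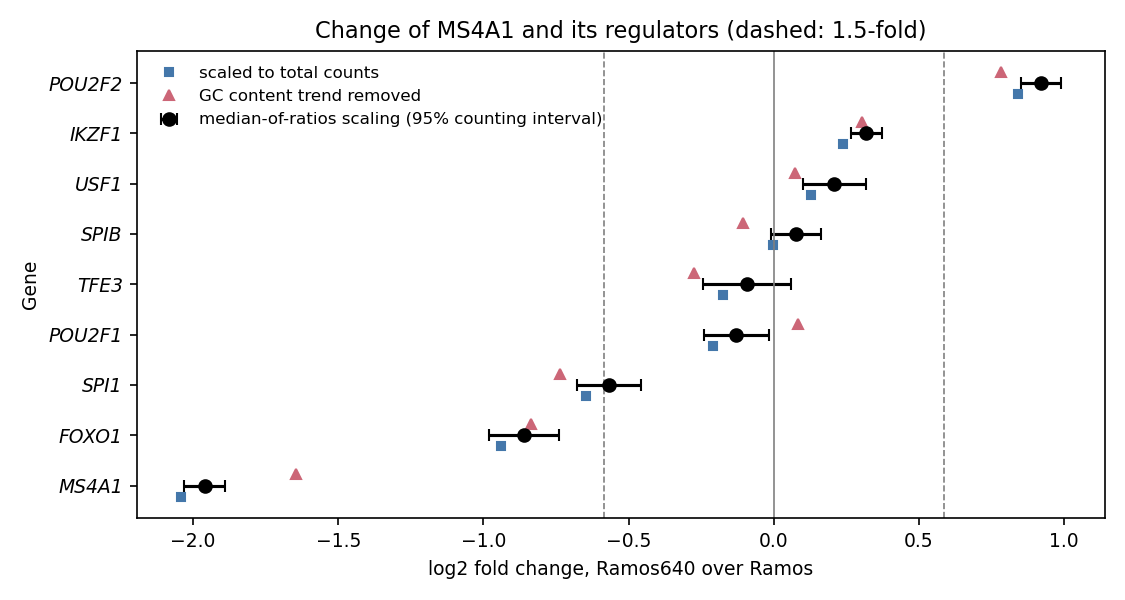
Log2 fold change of Ramos640 over Ramos for MS4A1 and its 8 regulators, 1 library per cell line (black points with 95% counting intervals: median-of-ratios scaling; blue squares: total counts; red triangles: trend over GC content removed; dashed lines: 1.5-fold). POU2F2 lies right of the upper line and FOXO1 and MS4A1 left of the lower line under all 3, SPI1 crosses the lower line under the alternatives, and SPIB and POU2F1 change sign under an alternative.

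The ETS factors differed from each other. SPI1, which encodes PU.1, had 1987 reads in Ramos and 1030 in Ramos640 (1741 and 1175 normalised reads). Its log2 fold change was -0.57 (interval from -0.68 to -0.46), which is 1.48-fold lower and just inside the 1.5-fold criterion. Scaled to total counts it was -0.65, and with the GC content trend removed -0.74, both past the criterion. SPIB, which encodes the close relative Spi-B, had 2471 reads in Ramos and 2001 in Ramos640 (2165 and 2284 normalised reads). Its log2 fold change of 0.077 had an interval from -0.0090 to 0.16, so a difference was not detectable at this depth. It was -0.0035 under total counts, and -0.11 with the GC content trend removed, where the interval from -0.19 to -0.020 lay below 0. SPIB shares 839 exon bases with another protein-coding locus on the same strand that has no row of its own in the table. The number of SPI1 reads per SPIB read, which needs no scaling, was 0.804 in Ramos and 0.515 in Ramos640, or 1.56-fold lower (1.42 to 1.72).

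The octamer factors parted as well. POU2F2, which encodes the B-cell factor Oct-2, had 2921 reads in Ramos and 4245 in Ramos640 (2560 and 4844 normalised reads), the only regulator past 1.5-fold upwards. Its log2 fold change was 0.92 (interval from 0.85 to 0.99), a 1.89-fold higher level, and 173 of the 8226 genes with at least 1000 reads were higher. POU2F1, which encodes the widely expressed Oct-1, had 1589 reads in Ramos and 1116 in Ramos640 (1392 and 1274 normalised reads). At -0.13 (interval from -0.24 to -0.017) it was little lower, and it was at 0.084 once the GC content trend was removed, since its transcripts hold 41.8% GC. The number of POU2F1 reads per POU2F2 read was 0.544 in Ramos and 0.263 in Ramos640, 2.07-fold lower (1.89 to 2.27). CD247 overlaps 784 exon bases of POU2F1 on the opposite strand, and the use of strand in counting is not stated; CD247 had only 25 and 58 reads.

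Both E-box factors were within 1.5-fold. TFE3 had 857 reads in Ramos and 617 in Ramos640 (751 and 704 normalised reads). With a log2 fold change of -0.093 and an interval from -0.24 to 0.058, a difference was not detectable, but this depended on the scaling. Under total counts it was -0.17, and with the GC content trend removed -0.28 (interval from -0.43 to -0.13), both with intervals below 0. USF1 had 1475 reads in Ramos and 1309 in Ramos640 (1293 and 1494 normalised reads). Its log2 fold change was 0.21 (interval from 0.10 to 0.32), and 0.073 after the GC content trend was removed, with an interval that included 0.

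FOXO1 had the lowest log2 fold change of the regulators. Its reads numbered 1917 in Ramos and 811 in Ramos640 (1680 and 926 normalised reads), a log2 fold change of -0.86 (interval from -0.98 to -0.74). This is 1.81-fold lower, and 251 of the 8226 genes with at least 1000 reads (3.05%) were lower still. A long noncoding RNA on the same strand, with no row of its own in the table, shares 1352 exon bases with FOXO1. Its 20 neighbours on chromosome 13 had a median log2 fold change of -0.095, and 0 of them was as low. IKZF1, which encodes Ikaros, had 5778 reads in Ramos and 5531 in Ramos640 (5063 and 6312 normalised reads). Its log2 fold change of 0.32 (interval from 0.26 to 0.37) was within 1.5-fold. Around POU2F2, on chromosome 19, 19 of 20 neighbours had a lower log2 fold change than POU2F2, and their median was 0.099.

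Against each of the 8 regulators, MS4A1 had fewer reads per regulator read in Ramos640 than in Ramos. The smallest difference was against FOXO1, with 5.04 MS4A1 reads per FOXO1 read in Ramos and 2.35 in Ramos640, 2.15-fold lower (1.95 to 2.36). Against SPI1 the ratio was 4.86 in Ramos and 1.85 in Ramos640, 2.63-fold lower. The largest was against POU2F2, from 3.31 MS4A1 reads per POU2F2 read in Ramos to 0.449 in Ramos640, 7.37-fold lower (6.88 to 7.89). MS4A1 thus had more reads than each regulator in Ramos, and fewer than IKZF1, POU2F2 and SPIB in Ramos640.

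Per length, as reads per kilobase of merged exons scaled to the total reads of the library (RPKM), MS4A1 was the most abundant of the 9 genes in Ramos, at 53.2 (exact Poisson interval from 52.2 to 54.3). SPI1 followed at 25.6, then USF1 at 16.6 and SPIB at 15.2, whose intervals overlapped. IKZF1 was at 13.9, POU2F2 at 8.47 and FOXO1 at 8.46 with overlapping intervals, TFE3 at 5.36 and POU2F1 at 2.61. In Ramos640, USF1 led at 18.2, and IKZF1 (16.4), SPI1 (16.4), POU2F2 (15.2) and SPIB (15.1) followed, the intervals of neighbours overlapping from IKZF1 to SPIB. MS4A1 was in place 6 at 12.9 (interval from 12.4 to 13.5), ahead of TFE3 (4.75) and FOXO1 (4.41), which overlapped, and of POU2F1 (2.25). With the length of the longest transcript in place of merged exons, MS4A1 was in place 1 in Ramos and 5 in Ramos640, and IKZF1 (28.6) and SPI1 (24.3) came before USF1 (23.5) in Ramos640. Exon lengths came from GENCODE, while the annotation behind the counts is not stated, so this order is less certain than the differences between libraries.

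**Figure D4:**
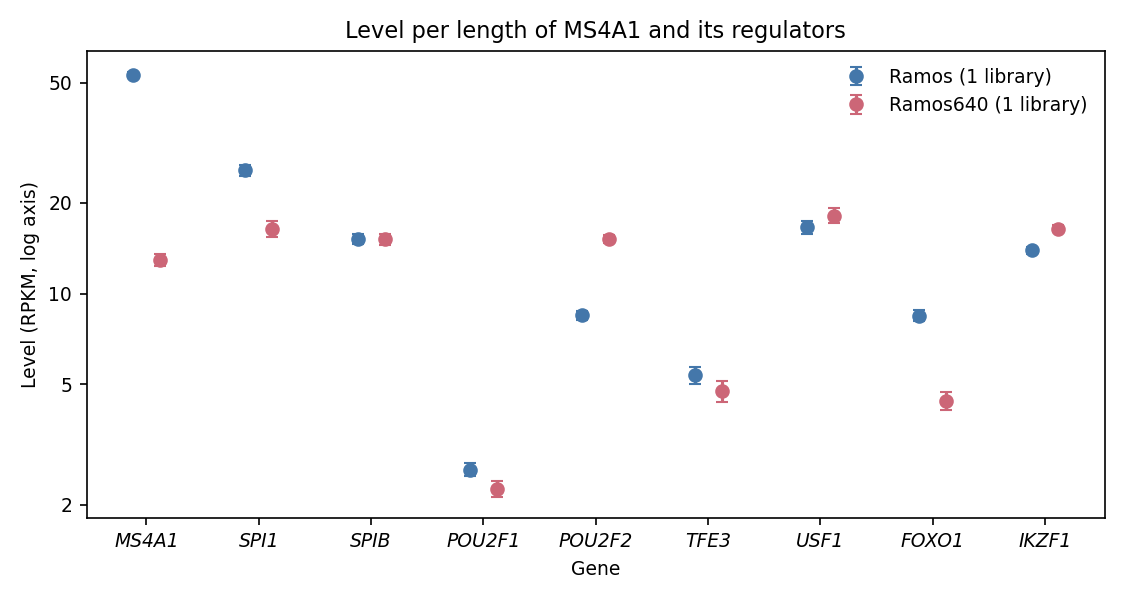
Level per length (RPKM, log axis) of MS4A1 and its 8 regulators in the Ramos and Ramos640 libraries (points: 1 library per cell line; bars: 95% exact Poisson intervals, counting error only). MS4A1 leads in Ramos at 53.2 and lies at 12.9 in Ramos640, below SPI1, POU2F2 and SPIB and above POU2F1.

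The promoters of the 2 regulators past 1.5-fold, and an alternative promoter of POU2F1, are shown to compare the motif letters they hold. RefSeq (GRCh38.p14) starts were matched by symbol for 7 of the 9 genes, with 12 entries. MS4A1 and SPI1 were not matched. Over the 250 bases before each start, both strands were searched for the octamer ATTTGCAT, the E-box CACGTG, the PU.1/Spi-B core GAGGAA, the forkhead motif GTAAACA and the Ikaros motif TGGGAA. Capitals mark matches, and positions count back from the base before the start, which is -1. The POU2F2 promoter lies at chr19:42132447-42132696 (minus strand), that of FOXO1 at chr13:40666642-40666891 (minus strand) and the alternative promoter of POU2F1 at chr1:167328820-167329069 (plus strand).
POU2F2: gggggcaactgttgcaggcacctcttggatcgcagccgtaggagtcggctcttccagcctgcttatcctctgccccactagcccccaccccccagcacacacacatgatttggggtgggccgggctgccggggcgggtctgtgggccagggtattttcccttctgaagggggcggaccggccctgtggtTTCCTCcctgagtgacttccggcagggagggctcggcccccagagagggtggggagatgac
FOXO1: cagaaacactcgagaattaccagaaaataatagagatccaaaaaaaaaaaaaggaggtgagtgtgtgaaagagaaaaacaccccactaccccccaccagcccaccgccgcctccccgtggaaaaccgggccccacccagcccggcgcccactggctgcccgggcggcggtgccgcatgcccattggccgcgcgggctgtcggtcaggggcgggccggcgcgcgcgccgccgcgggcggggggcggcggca
POU2F1: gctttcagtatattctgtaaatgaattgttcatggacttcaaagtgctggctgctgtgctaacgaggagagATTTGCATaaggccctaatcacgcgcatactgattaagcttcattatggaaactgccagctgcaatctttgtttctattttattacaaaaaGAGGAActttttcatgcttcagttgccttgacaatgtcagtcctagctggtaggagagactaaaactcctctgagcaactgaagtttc
The POU2F2 promoter holds the PU.1/Spi-B core, read as its reverse complement TTCCTC, from -61 to -56, a motif found in 23.6% of the 35093 promoters searched. No searched motif is in the FOXO1 window. The POU2F1 entry holds the octamer from -179 to -172, which 1.63% of promoters hold, and the PU.1/Spi-B core from -88 to -83. The other 2 POU2F1 entries, which start 1 base apart, lack the octamer and hold the PU.1/Spi-B core. In all, 6 of the 12 entries held that core and 1 the octamer. The E-box, present in 6.34% of promoters, and the forkhead motif, in 2.98%, were in none of the 12 entries. The Ikaros motif, in 20.9% of promoters, was in 1 entry, that of IKZF1 itself from -32 to -27. These matches describe the letters of the windows only.

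Of 11 other factors described at the MS4A1 promoter or needed for the B-cell programme, all with at least 10 reads, 7 were lower and 4 higher in Ramos640. Of these, 7 had intervals below 0 and 2 above 0, beside 39.4% and 40.9% of the genes with at least 1000 reads, as all 11 had, and 3 were past 1.5-fold downwards, beside 7.93%. Their median log2 fold change was -0.26 (-0.34 under total counts). SMAD2, a transducer of TGF-β signals, had 3562 reads in Ramos and 859 in Ramos640 (-1.67), and its partner SMAD3 had 2161 and 722 (-1.20). SMAD2 lies on chromosome 18, where all 20 neighbours examined were past 1.5-fold downwards with a median of -1.61. The largest increases were those of the NF-κB subunit RELA (2739 and 3100 reads, 0.56) and of CREM (847 and 733 reads, 0.17), a cAMP-responsive factor. Other members were picked after their values were seen. PAX5, which holds B-cell identity, had 4624 and 2039 reads (-0.80), EBF1 692 and 362 (-0.55), IRF8 12547 and 7657 (-0.33), and POU2AF1, the coactivator of Oct-1 and Oct-2, 14993 and 9643 (-0.26). IRF4, a partner of PU.1, was at -0.053 with 7255 and 5369 reads. The remaining members, TCF3 (17580 and 13559 reads, 0.0064) and NFKB1 (3943 and 3076 reads, 0.023), had intervals that included 0. This depended on the GC content trend. With it removed, TCF3 was at -0.21 and NFKB1 at 0.38, where RELA was at 0.38 and CREM at 0.27.

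The corepressor and chromatin enzymes stayed within 1.5-fold in all 8 cases. Intervals above 0 were found for 4 and below 0 for 4, beside 40.9% and 39.4% of the genes with at least 1000 reads, with a median log2 fold change of 0.038, which was -0.042 under total counts. The histone deacetylase HDAC3 (3992 and 4387 reads, 0.52) and the remodeller CHD4 (15353 and 14098 reads, 0.26) were the highest. The histone methyltransferase EZH2 (8560 and 5271 reads, -0.32) and HDAC2 (3442 and 2299 reads, -0.20) were the lowest. With the GC content trend removed, EZH2 was at -0.088 and HDAC2 at 0.12, and the lowest was DNMT1, a DNA methyltransferase, at -0.21.

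Paralogues of the regulators were expressed in part. Of 13 listed, 8 had at least 10 reads, while SPIC, POU2F3, TFEC and MITF had none in either library and FOXO6 had 1 and 0. The 8 had a median log2 fold change of 0.089, with 2 past 1.5-fold in each direction, beside 14.6% of all genes upwards and 17.3% downwards. This median was 0.0084 under total counts and 0.26 with the GC content trend removed. IKZF4 (61 and 111 reads, 1.23) and FOXO3 (164 and 271 reads, 1.10) were higher. IKZF2 (247 and 81 reads, -1.22) and FOXO4 (673 and 313 reads, -0.72) were lower. FOXO1 and FOXO4 were thus lower and FOXO3 higher in the Ramos640 library, but FOXO3 had far fewer reads than FOXO1 in both.

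Among the 10 kinases and phosphatases upstream of FOXO1, 3 had intervals above 0 and 3 below 0, beside 29.6% and 31.6% of all genes, with a median log2 fold change of -0.058 (-0.14 under total counts and -0.10 with the GC content trend removed). AKT2, a kinase that phosphorylates FOXO proteins, had 2994 and 3225 reads (0.49). SGK1, a related kinase, had 61 and 33 reads (-0.49, interval from -1.16 to 0.13), so no difference was detectable at this depth. PIK3R1, a regulatory subunit of PI3K named after its value was seen, was at -0.38 with 1681 and 991 reads.

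Described FOXO1 targets held the widest range of changes. Of 15 listed, 14 had at least 10 reads, and 6 were past 1.5-fold downwards and 2 upwards, beside 17.3% and 14.6% of all genes. Intervals lay below 0 for 9 and above 0 for 3, beside 31.6% and 29.6%. The median log2 fold change was -0.31, also with counts of 0 set to a floor of 3 reads, and -0.51 with a minimum of either 1 or 100 reads. IL7R, the interleukin-7 receptor, had 237 reads in Ramos and 0 in Ramos640, 60.7-fold lower against a floor of 3 reads per library. Its interval reached up to -5.61 on the log2 scale. Further targets past 1.5-fold downwards, named after their values were seen, included SESN3 (220 and 54 reads, -1.63), IRS2 (64 and 17, -1.48), KLHL24 (488 and 137, -1.45) and CCNG2 (2310 and 744, -1.25). RAG2, a recombinase subunit, had 0 and 14 reads, 6.08-fold higher by the same floor, with an interval from 2.11 upwards on the log2 scale. CDKN1B, which encodes the cell cycle inhibitor p27, had 581 and 846 reads (0.92). These targets are also controlled by other factors, and their dependence on FOXO1 was not tested.

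**Figure D5:**
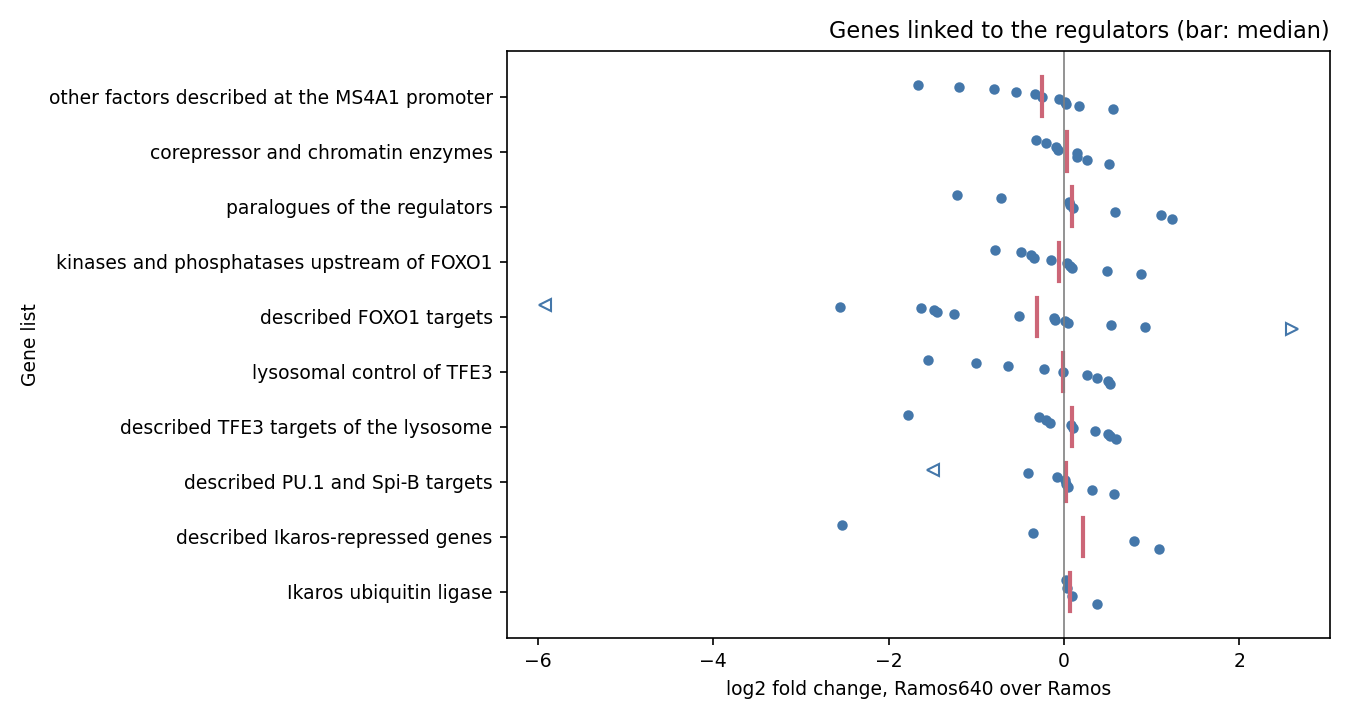
Log2 fold change of Ramos640 over Ramos for the genes with at least 10 reads of each list linked to the regulators, 1 library per cell line (blue points: genes; red bars: medians; open triangles: values against a floor of 3 reads for genes with no reads in a library). The FOXO1 targets spread most, from IL7R on the left to RAG2 on the right, and the medians lie between -0.31 and 0.22.

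Of the 9 genes of the lysosomal control of TFE3, 3 were past 1.5-fold downwards and 0 upwards, beside 17.3% and 14.6% of all genes. Intervals lay above 0 for 4 and below 0 for 3, beside 29.6% and 31.6%. The median log2 fold change was -0.017, with 0.083 once the GC content trend was removed and 0.26 over the genes with at least 100 reads. RPTOR, which brings substrates to mTOR, was highest (1603 and 1773 reads, 0.53), with FLCN, which restrains TFE3, next (79 and 86 reads, 0.50). FNIP2, a partner of FLCN, was lowest (52 and 13 reads, -1.56), and RRAGD had 9 and 3 reads (-1.01, with an interval that included 0). Among 10 lysosomal targets of TFE3, 4 had intervals above 0 and 4 below 0, beside the same 29.6% and 31.6%, with a median of 0.093 (0.013 under total counts). The proteases CTSD (396 and 460 reads, 0.60, or 0.52 under total counts) and CTSA (546 and 603, 0.52) were highest, and GPNMB (110 and 24, -1.78) and the autophagy receptor SQSTM1 (4516 and 2838, -0.29) were lowest.

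Described targets of PU.1 and Spi-B lay on both sides of 0. Of 8 genes, 2 had intervals above 0 and 3 below 0, beside 29.6% and 31.6% of all genes, and the median log2 fold change was 0.018 (-0.062 under total counts and 0.097 with the GC content trend removed). CD79A (25460 and 29007 reads, 0.57) and JCHAIN (54737 and 52500 reads, 0.32), a chain of secreted antibodies, were highest. FCGR2B, the inhibitory Fc receptor, had 11 reads in Ramos and 0 in Ramos640, 2.82-fold lower against the floor. Its interval reached up to -0.95 on the log2 scale. CD72 had 1456 and 843 reads (-0.41). Of the kinases in this list, named after their values were seen, BTK (6403 and 4652 reads) was at -0.080 and SYK (16879 and 13084) at 0.014 (-0.067 under total counts).

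Genes described as repressed by Ikaros had no shared direction. IGLL1 (90 and 147 reads, 1.08) and MYC (16186 and 21564 reads, 0.79) were higher, VPREB1 (163 and 21 reads, -2.53) and CDK6 (2684 and 1612 reads, -0.35) lower, and DNTT had no reads. IGLL1 and VPREB1, which encode the parts of the surrogate light chain, thus lay on opposite sides. Of the ubiquitin ligase that degrades Ikaros under lenalidomide-type drugs, CRBN (870 and 677 reads, 0.019), CUL4A (6943 and 5690, 0.094) and RBX1 (8133 and 6389, 0.033) were within 0.1 of 0 on the log2 scale, and DDB1 (16875 and 16876) was at 0.38. The signs of CRBN and RBX1 depended on the scaling, and the order of the genes on the GC content trend. CRBN and RBX1 were below 0 under total counts, and with the GC content trend removed CRBN was at 0.35, CUL4A at 0.26, RBX1 at 0.19 and DDB1 at 0.28.

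With 2 libraries, likeness to MS4A1 could be measured only as the difference in log2 fold change among the 160 protein-coding genes within 2 times its normalised reads in both. The nearest were MBD2 (12133 and 2494 reads, -1.90), HAUS1 (6657 and 1155, -2.15) and TXNL1 (5604 and 1283, -1.75), all on chromosome 18. On that chromosome the 20 genes examined around SMAD2 had a median of -1.61. The 20 around MS4A1 on chromosome 11 had 0.010, mostly lower before it and higher after it. Shared control of these genes with MS4A1 was not tested.

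The libraries carried the B-cell genes that the label implies, with 8 of 8 B-cell markers at 362 or more reads in each library. CD37 (0.65) and CD79B (0.64) had the highest log2 fold changes, within 1.5-fold under total counts or with the GC content trend removed, and PAX5 (-0.80) and EBF1 (-0.55) the lowest. The summed level of the 8 was 131815 normalised reads in Ramos and 167801 in Ramos640, with CD79B the largest part (60897 and 94594). Of the 8, 4 were higher and 4 lower, beside 48.8% and 51.2% of all genes tested. Their median log2 fold change was 0.0057 (-0.075 under total counts). The 8 T-cell markers summed to 1572 and 634 reads, nearly all of them on TRAC (1555 and 583, -1.03). CD3E had 1 and 31 reads and CD4 11 and 19, both higher in Ramos640, while CD2, CD3D, CD8A and CD8B were at 0. The 7 monocyte and macrophage markers summed to 22 and 19 reads, led by S100A8 (13 and 4) and CSF1R (3 and 9), with CD14 at 2 and 3. The 5 epithelial markers summed to 43 and 16, mostly KRT8 (18 and 3) and KRT18 (19 and 11). The 5 fibroblast markers summed to 1296 reads in Ramos and 398 in Ramos640, mostly COL1A1 (651 and 192, -1.38), COL1A2 (466 and 162, -1.14) and COL3A1 (166 and 40, -1.65). DCN had 13 and 1, and 4 of the 5 were past 1.5-fold downwards, beside 17.3% of all genes, the same direction as MS4A1. LUM had 0 and 3 reads, and the part of any of these marker genes in the difference of MS4A1 was not tested.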

How the data were processed

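RNA-seq libraries of Ramos and Ramos640 cells (1 each, RNA of 3 passages pooled) were sequenced on the Ion Proton. After adaptor trimming, the authors aligned to GRCh37 with MapSplice and deposited whole-number read counts per gene, without normalization. The counting program, its annotation and its use of strand are not given in the sources used here, so reads of overlapping or near-identical genes are uncertain.

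From the counts, size factors, log2 fold changes, Clopper-Pearson and Poisson intervals, RPKM values, and odds ratios of 2 genes' reads with exact conditional intervals were computed (Python 3.11.15, scipy 1.17.1). With 1 library per cell line no dispersion can be estimated, so no differential expression test was run. A fold past 1.5, or an interval that excludes 0, served as a description. TMM factors came from edgeR 4.0.16 in R 4.3.3. Positions, exon lengths and GC content came from GENCODE v44lift37 (GRCh37), which covered 83.9% of the genes tested (26511 symbols matched directly, 2227 through older symbols). The GC content trend was a running median over windows of 501 well-counted protein-coding genes (minimum 100 reads). The size factors, log2 fold changes and Clopper-Pearson intervals were tested on simulated Poisson counts, which hold no variation between cultures. The other steps were not part of that test.

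The members and lists were chosen with earlier results of these data known. The genes named are the 9 members, up to 2 with the largest increase and decrease in each list among those with at least 10 reads, all such genes of lists of 5 or fewer, and the 3 nearest to MS4A1. Some genes that this rule names are not reported here. Others are marked as named after their values were seen.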

Additional observations from a re-analysis of the deposited data

How the results depend on the processing

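The alternatives were TMM factors, total counts, pseudocounts of 0.1 and 10, removal of the GC content trend, and minimums of 1 and 100 reads. MS4A1, which the minimums do not touch, stayed negative under the scalings, pseudocounts and GC content correction, from -2.04 (total counts) to -1.65 (GC content trend removed). POU2F1 changed sign with the GC content trend removed (0.084), and SPIB, at 0.077, did so under total counts (-0.0035) and with the GC content trend removed (-0.11). Of the 9 genes, 3 had intervals above 0 and 4 below 0, against 2 and 5 with the GC content trend removed and 3 and 5 under total counts. Between 2 and 3 of the 9 genes were past 1.5-fold downwards, and 1 upwards throughout. Over all genes, the counts past 1.5-fold moved from 2733 higher and 3248 lower to 4902 and 5547 with a minimum of 1 read and to 1359 and 1720 with 100 reads, since the minimum sets how many genes are tested. The place of MS4A1 per length in Ramos640 was 6 with merged exons and 5 with the longest transcript. TMM factors shifted the median of all genes by -0.0098 and total counts by -0.080. No paired analysis was possible because each cell line had 1 library, and for the same reason no replicate could be left out. Counting error was small for the 9 genes (617 reads or more), but variation between cultures is not known.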

Other observations

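Genes of B-cell stages also differed between the libraries. Of 5 germinal centre markers, 4 had intervals below 0, beside 31.6% of all genes tested, with a median log2 fold change of -0.38. MME, which encodes the surface peptidase CD10, had 12005 reads in Ramos and 4880 in Ramos640 (-0.92), BACH2 15440 and 9094 (-0.38), and BCL6, the repressor that defines germinal centre B cells, 10949 and 6530 (-0.36). CD38 was higher, with 4348 and 3775 reads (0.18).

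Of 5 plasma cell markers, 4 had at least 10 reads, and the intervals of 3 lay above 0, beside 29.6% of all genes tested. Their median was 0.51, with 0.80 once the GC content trend was removed and 0.32 at a minimum of 100 reads. XBP1, a factor of antibody secretion, had 18028 and 22624 reads (0.71), and PRDM1, which encodes Blimp-1, had 16 and 31 (1.28, interval from 0.42 to 2.30). JCHAIN was at 0.32 and IRF4 at -0.053, while SDC1, the plasma cell surface marker CD138, had 1 and 3 reads.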
